A study of Homo sapiens with 24 samples.

Results

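The 10 immediate early transcription factor genes examined here were measured in renal carcinoma cells exposed for 6 h to low oxygen, to an AHR ligand, or to both. They are the FOS family genes FOS, FOSB, FOSL1 and FOSL2, the JUN family genes JUN, JUNB and JUND, and EGR1, ATF3 and IER2, chosen by symbol as 10 of the 23106 gene symbols in the count files. The cells were RCC4+VHL, a renal carcinoma line lacking working VHL in which the gene was put back by stable transfection, so that HIF again responds to oxygen. The 4 groups, each of 6 replicates, combined normoxia or hypoxia with ITE or DMSO and are called normoxia + DMSO, hypoxia + DMSO, normoxia + ITE and hypoxia + ITE. Normoxia was 21% oxygen and hypoxia 0.5%. ITE, an indole compound that activates AHR, was given at 100 nM, and DMSO at 0.1% served as vehicle. All groups shared the restored VHL, phenol red-free medium and charcoal-treated serum, and they come from 1 engineered line.

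Immediate early genes are switched on within minutes of a growth factor, a stress or handling of the cells, without new protein synthesis, and many of their mRNAs are lost again within hours. FOS and JUN proteins pair through leucine zippers to form AP-1, and the make-up of the pair sets how strongly it acts on its target genes. EGR1 is a zinc finger factor induced through SRF, ATF3 is a stress-induced factor that can pair with JUN proteins, and IER2 is a small nuclear early response protein. Because samples were taken at 6 h, an early rise that had already ended would not be seen.

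Libraries differed widely in depth. Total counts lay between 770094 and 93851342 (median 7981993), so that 3 counts stood for 0.032 CPM (each library's counts brought to one total) in the deepest and 3.90 CPM in the shallowest library. Such floors cover counting error only. A few libraries had far lower sample quality weights than the rest, namely hypoxia + ITE replicate 6 (0.0723), hypoxia + ITE replicate 3 (0.173) and hypoxia + DMSO replicate 1 (0.252), against 0.720 to 2.13 in the other 21. The treatments could be read in the AHR target CYP1B1, with a log2 fold change of 2.51 for ITE in normoxia (adjusted p = 7.64e-09, edgeR), and in the HIF target NDRG1, with 3.25 for hypoxia with DMSO (adjusted p = 5.68e-15). The second AHR target, TIPARP, had 1.35 for ITE in normoxia, and the second HIF target, DDIT4, had 3.53 for hypoxia with DMSO. All 7 renal markers had counts in every library. Of 14 markers of leukocytes, endothelium, fibroblasts and red cells, CD68 and PDGFRB had counts in every library. Of the remaining 12, 9 had counts in normoxia + DMSO replicate 4, with a summed 50.8 CPM, against at most 6 markers and 3.71 CPM in the other 23 libraries, and CD3E, HBB and HBA1 were at 0 in it.

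Per kilobase of transcript, FOSL1 had the highest level of the 10 genes and FOS the lowest. FOSL1, a FOS family protein without the strong activating end of FOS, had a mean over the 24 libraries of 69.9 ± 19.7 CPM per kb (SD, n = 24). JUND, the JUN family member usually present in resting cells, followed at 48.9 ± 9.25 CPM per kb, and JUN at 37.2 ± 5.58 CPM per kb. IER2 (19.7 ± 4.47 CPM per kb), JUNB (16.9 ± 5.0), ATF3 (16.1 ± 4.97) and FOSL2 (13.5 ± 3.76) came next, and each neighbouring pair among these differed by less than 1 SD. EGR1 (0.592 ± 0.488 CPM per kb), FOSB (0.219 ± 0.102) and FOS (0.150 ± 0.204) lay far below, and again neighbours did not differ beyond their spread. The lengths come from a later annotation than the one used for counting, which limits this order.

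**Figure D1:**
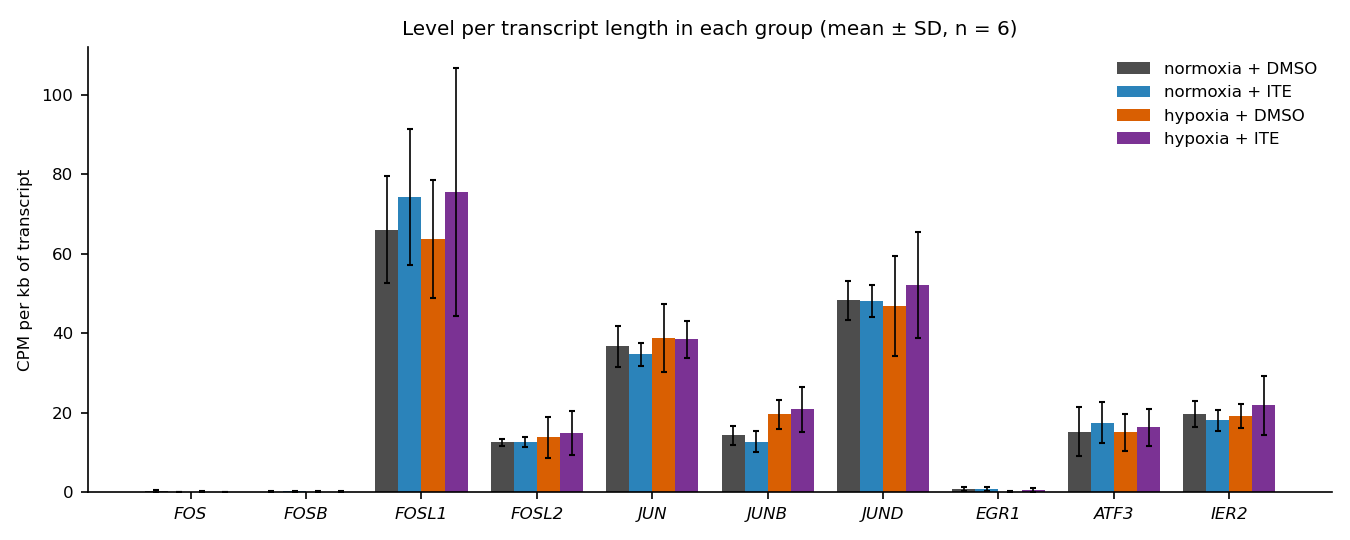
Level of each gene in CPM per kb of transcript (vertical axis) in the 4 groups (colours), as bars for the mean and lines for the SD of 6 libraries. FOSL1, JUND and JUN stand highest, and the bars of FOS, FOSB and EGR1 lie close to 0 in every group.

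Within the FOS family the make-up was almost the same in every group. FOSL1 supplied 83.1 ± 3.46% (SD, n = 6) of the summed FOS family level per kb in normoxia + DMSO, 84.5 ± 3.49% in normoxia + ITE, 82.1 ± 4.88% in hypoxia + DMSO and 82.9 ± 3.12% in hypoxia + ITE. FOSL2 made up nearly all the remainder, from 15.1 ± 3.47% in normoxia + ITE to 17.3 ± 5.10% in hypoxia + DMSO. In the JUN family, the share of JUNB was 14.4 ± 1.25% in normoxia + DMSO and 13.2 ± 1.81% in normoxia + ITE, against 18.7 ± 3.15% in hypoxia + DMSO and 18.7 ± 4.37% in hypoxia + ITE. JUND had the largest mean share in all 4 groups, between 44.1 ± 7.64% in hypoxia + DMSO and 50.4 ± 3.40% in normoxia + ITE.

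FOS, the founding member of AP-1, was barely detected. Its 208 counts over 24 libraries left 6 libraries at 0 and 14 at 3 counts or fewer, and it did not pass the filter on low counts. By replicate 1 to 6, FOS had 0.25, 0.40, 0.21, 2.03, 0.14 and 0.11 CPM in normoxia + DMSO. It ranged from 0 to 0.49 CPM in normoxia + ITE, from 0 to 0.93 CPM in hypoxia + DMSO and from 0 to 0.46 CPM in hypoxia + ITE. The 2.03 CPM of normoxia + DMSO replicate 4, from 55 counts, stood apart from every other library, and that is the library with the markers of other cell types. Without the filter, FOS had a log2 fold change of -1.73 for ITE in normoxia (adjusted p = 1, edgeR), which became -0.53 without that library (adjusted p = 1). The part of the other cell types in the FOS value was not tested. FOSB, a close relative of FOS, had 414 counts, from 0.19 to 1.65 CPM, and did not pass the filter either. Its groups overlapped, and its log2 fold change for ITE in normoxia was 0.58 without the filter (adjusted p = 1).

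For ITE at 100 nM, 0 of the 8 genes that passed the filter differed by edgeR's test, in normoxia or in hypoxia. Over all 11735 genes tested, 0.0511% passed an adjusted p of 0.05 for ITE in normoxia and 0.0597% for ITE in hypoxia, so the count of 0 says nothing particular about these genes. The number at an unadjusted p under 0.05 was also 0 of 8 in both, and DESeq2 called 0 as well. In normoxia the log2 fold changes ran from -0.28 for EGR1 (2 standard errors (SE) either side, -1.11 to 0.56) to 0.23 for ATF3 (-0.23 to 0.69). The EGR1 value was -0.93 under voom with quality weights, -0.63 without normoxia + ITE replicate 2 and -0.43 without normoxia + DMSO replicate 5. It was -0.01 without normoxia + DMSO replicate 2 and -0.08 without normoxia + ITE replicate 5 or 6. The narrowest interval was that of JUN, at -0.08 (-0.33 to 0.18). The fit shares the spread of each gene over all 4 groups, so intervals in normoxia also carry the scatter of the hypoxia libraries. The median SD of log2 CPM over all tested genes was 0.17 in normoxia + DMSO and 0.18 in normoxia + ITE. It was 0.33 in hypoxia + DMSO and 0.47 in hypoxia + ITE. Which gene has the narrowest interval depends on this sharing. In hypoxia the log2 fold changes for ITE ran from -0.03 for JUN (-0.28 to 0.23) to 0.79 for EGR1 (-0.28 to 1.86). The interaction of oxygen and ITE passed for 0 of 8 genes, against 0.0% of all genes, with 0 of 8 at an unadjusted p under 0.05 and 0 by DESeq2. EGR1 had the largest interaction at 1.06 (SE 0.68, adjusted p = 0.915), and 1.77 under voom with quality weights.

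With hypoxia, JUNB rose in the presence of ITE, and no other of the 8 tested genes passed in either hypoxia comparison. The comparisons share libraries and are given side by side. With ITE present, 1 of the 8 genes passed (JUNB), where 2.35% of all genes did. With DMSO, 0 of 8 passed, where 1.3% of all genes did, with 2 of 8 (JUNB and EGR1) at an unadjusted p under 0.05, where 9.47% of all genes were, and 1 of 8 (EGR1) by DESeq2. For the mean of both hypoxia comparisons, a contrast added after the values had been seen, 2 of 8 passed (JUNB higher, EGR1 lower), where 5.01% of all genes did, 3.35% higher and 1.66% lower. Because EGR1 entered the test largely through the normoxia libraries, the second of these calls is not counted as support for a fall.

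**Figure D2:**
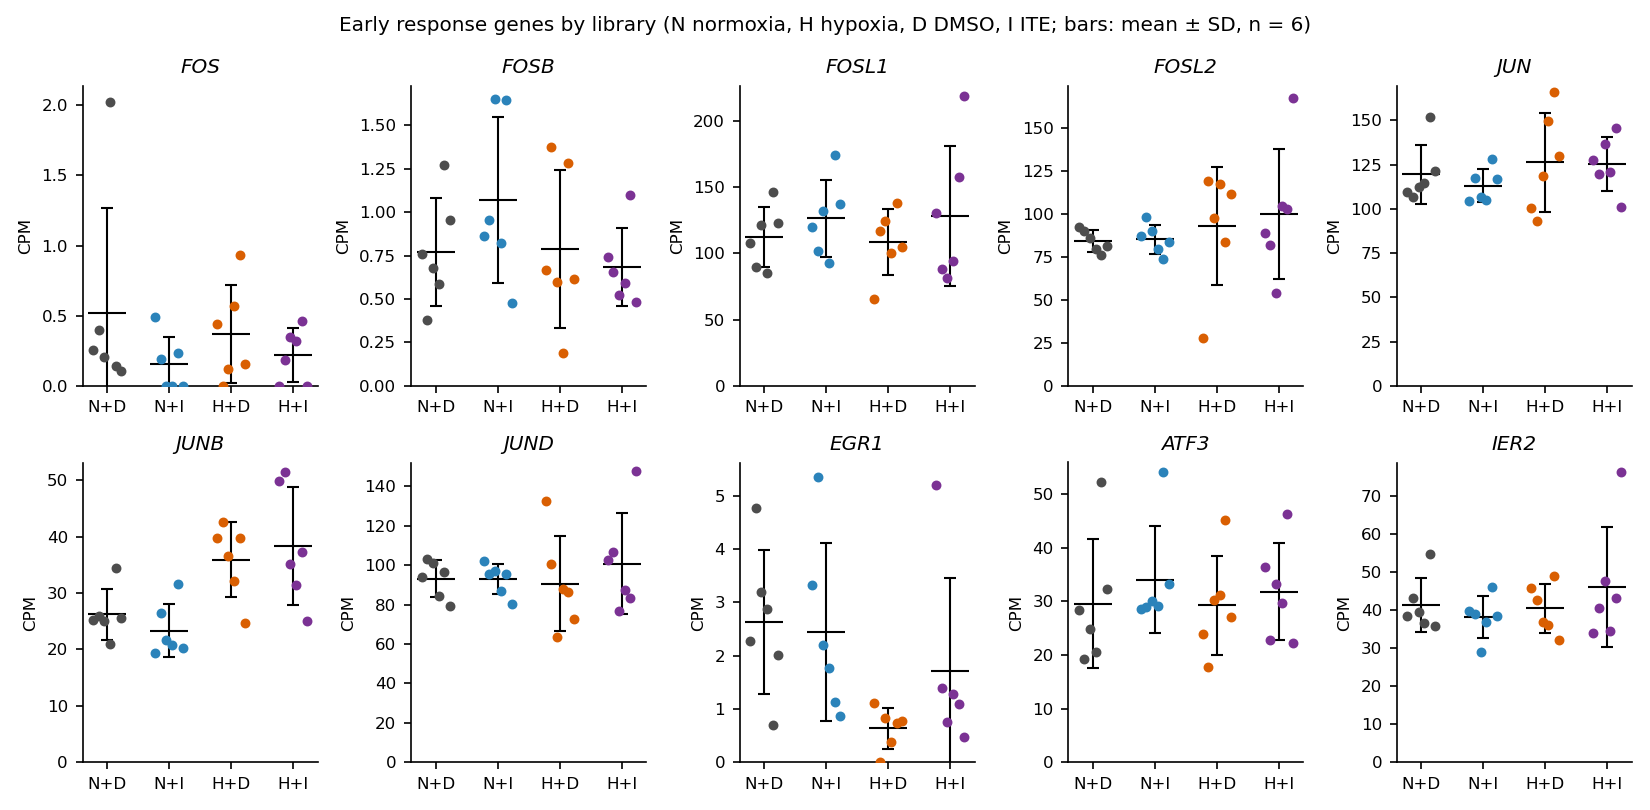
CPM of each of the 10 genes (vertical axes, each with its own scale from 0) in the 24 libraries (points) by group, with lines for the mean and SD of 6 libraries. In JUNB the hypoxia points reach 51.5 CPM and the normoxia points 34.5 CPM, and in EGR1 no hypoxia + DMSO library exceeds 1.11 CPM.

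JUNB encodes a JUN protein that activates less strongly than JUN and can restrain it. The gene is a single exon on the plus strand of chromosome 19, from 12902300 to 12904129 in GRCh37. Its promoter and that of EGR1, the 2 genes with an unadjusted p under 0.05 for hypoxia with DMSO, are shown with letters that could be read by the factors of this experiment or of the early response. The sequences are from RefSeq (GRCh38.p14 table) and were placed in GRCh37 by exact match, JUNB at chr19:12902050-12902299 and EGR1 at chr5:137800918-137801167, both on the plus strand and ending at the base before the start site. Capitals mark the HIF core motif ACGTG, the AHR core motif GCGTG, which HIF can also read, and the CArG box bound by SRF, each searched on both strands.
JUNB: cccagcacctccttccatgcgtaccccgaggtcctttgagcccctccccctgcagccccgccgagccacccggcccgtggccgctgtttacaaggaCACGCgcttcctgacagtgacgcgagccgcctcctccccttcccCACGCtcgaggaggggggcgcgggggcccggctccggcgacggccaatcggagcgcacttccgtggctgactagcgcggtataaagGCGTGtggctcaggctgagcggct
EGR1: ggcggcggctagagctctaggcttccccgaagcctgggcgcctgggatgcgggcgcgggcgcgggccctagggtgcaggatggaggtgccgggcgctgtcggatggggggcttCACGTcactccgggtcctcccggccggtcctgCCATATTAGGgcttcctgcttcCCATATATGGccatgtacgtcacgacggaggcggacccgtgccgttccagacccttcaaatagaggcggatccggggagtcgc
The JUNB window held 3 copies of GCGTG, beginning 154, 110 and 24 bases before the start site, and no ACGTG. The EGR1 window held 1 ACGTG at 137 bases and CArG boxes at 105 and 83 bases. Other members held the core motifs too, GCGTG in FOS, JUN and IER2 and ACGTG in FOSL2 and IER2. Of 35116 promoter windows of this length, 32.22% held GCGTG, 18.51% ACGTG and 1.159% a CArG box. Such matches describe letters only, and binding was not analysed here.

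By replicate 1 to 6, JUNB had 25.3, 25.9, 25.1, 21.0, 34.5 and 25.5 CPM in normoxia + DMSO. In normoxia + ITE it had 19.5, 26.4, 21.6, 20.8, 31.5 and 20.2 CPM. In hypoxia + DMSO it had 39.8, 42.6, 36.5, 32.2, 39.8 and 24.6 CPM. In hypoxia + ITE it had 49.8, 51.5, 35.0, 31.4, 37.2 and 25.1 CPM. All 6 hypoxia + ITE libraries lay above the median of normoxia + ITE and 4 above its highest library, and the groups overlapped. In hypoxia + DMSO, 5 of 6 libraries lay above the median of normoxia + DMSO and 4 above its highest. In both hypoxia groups replicate 6 was the lowest library.

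JUNB rose with hypoxia in the presence of ITE from 23.3 ± 4.71 to 38.3 ± 10.4 CPM (SD, n = 6), a log2 fold change of 0.70 (SE 0.17, adjusted p = 0.0239, edgeR). With DMSO the means were 26.2 ± 4.45 and 35.9 ± 6.58 CPM and the log2 fold change 0.44 (SE 0.17, adjusted p = 0.342), which did not pass. The mean of both hypoxia comparisons, the contrast added after the values had been seen, was 0.57 (SE 0.12, adjusted p = 0.00355). The effect of hypoxia on JUNB with ITE and with DMSO differed by 0.25 (SE 0.24, adjusted p = 0.915), so no difference between them was shown. The call with ITE was lost, at adjusted p from 0.0633 to 0.0695, when normoxia + ITE replicate 1, 3, 4 or 6 or hypoxia + ITE replicate 2 was left out, and in a fit of only the 12 libraries with ITE (0.70, adjusted p = 0.145). The mean of both comparisons passed in all 24 fits that left out 1 library, with log2 fold changes from 0.51 to 0.63. Those fits share nearly all their libraries, so they are not separate support for that contrast.

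HOOK2, which codes for an adaptor protein of the microtubule system, is annotated on the opposite strand, with 1 exon of 1 transcript (chromosome 19, 12903138 to 12903396) inside JUNB. HOOK2 had mean CPM of 10.2 in normoxia + ITE and 21.1 in hypoxia + ITE, a log2 fold change of 1.05 (SE 0.27, adjusted p = 0.0324), and 0.50 (adjusted p = 0.148) without the 3 libraries of low weight. JUNB had 0.81 (adjusted p = 0.00262) without those 3. According to the paper, reads were counted with HTSeq in intersection-strict mode on UCSC-defined genes. Whether those gene models hold this HOOK2 exon was not checked. Whether the counting used the strand is not given in the sources used here, so reads in that stretch cannot be assigned to one gene with certainty. The part of HOOK2 in the JUNB value was not tested.

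EGR1, a zinc finger factor induced by growth factors and stress, lies on the plus strand of chromosome 5 from 137801168 to 137804992 and has 2 exons. It had few counts, 1059 over all libraries. By replicate 1 to 6, it had 2.28, 4.77, 3.19, 2.87, 0.71 and 2.01 CPM in normoxia + DMSO. In normoxia + ITE it had 3.33, 5.35, 2.20, 1.78, 1.13 and 0.86 CPM. In hypoxia + DMSO it had 1.11, 0, 0.83, 0.38, 0.73 and 0.77 CPM, from 5, 0, 7, 2, 29 and 5 counts. In hypoxia + ITE it had 5.20, 1.40, 0.76, 1.29, 1.10 and 0.48 CPM. The 0 belongs to the shallowest library, where 3 counts stand for 3.90 CPM, and the 5.20 CPM of hypoxia + ITE replicate 1 rests on 7 counts. All 6 hypoxia + DMSO libraries lay below the median of normoxia + DMSO, but only 2 below its lowest library, replicate 5. The filter required about 1.25 CPM in 6 libraries, which 5 of 6 normoxia + DMSO and 4 of 6 normoxia + ITE libraries reached, against 0 of 6 hypoxia + DMSO and 3 of 6 hypoxia + ITE libraries. EGR1 thus entered the test largely through the normoxia libraries, so its values in hypoxia are given as a description.

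With DMSO, the mean of EGR1 was 2.64 ± 1.35 CPM in normoxia and 0.637 ± 0.390 CPM in hypoxia. The log2 fold change was -1.90 (SE 0.50, adjusted p = 0.0539, edgeR), which did not pass. It passed with DESeq2 (adjusted p = 0.0184), without the 3 libraries of low weight (0.0211) and without the 2 shallowest libraries (0.0438). It also passed when normoxia + DMSO replicate 5, normoxia + ITE replicate 2 or 6, or hypoxia + ITE replicate 1 or 6 was left out. Because EGR1 entered the test largely through the normoxia libraries, none of these calls is counted as support for a fall. With ITE, the means were 2.44 ± 1.67 and 1.71 ± 1.75 CPM and the log2 fold change -0.84 (SE 0.46, adjusted p = 0.308), which was -0.48 without normoxia + ITE replicate 2 and -0.28 under voom with quality weights. The mean of both hypoxia comparisons, the contrast added later, was -1.37 (SE 0.34, adjusted p = 0.0147). With no filter on low counts it was also -1.37 (adjusted p = 0.0224), and the comparison with DMSO was -1.90 (adjusted p = 0.0780). In these bulk samples, fewer cells with EGR1 RNA and less of it per cell cannot be told apart.

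**Figure D3:**
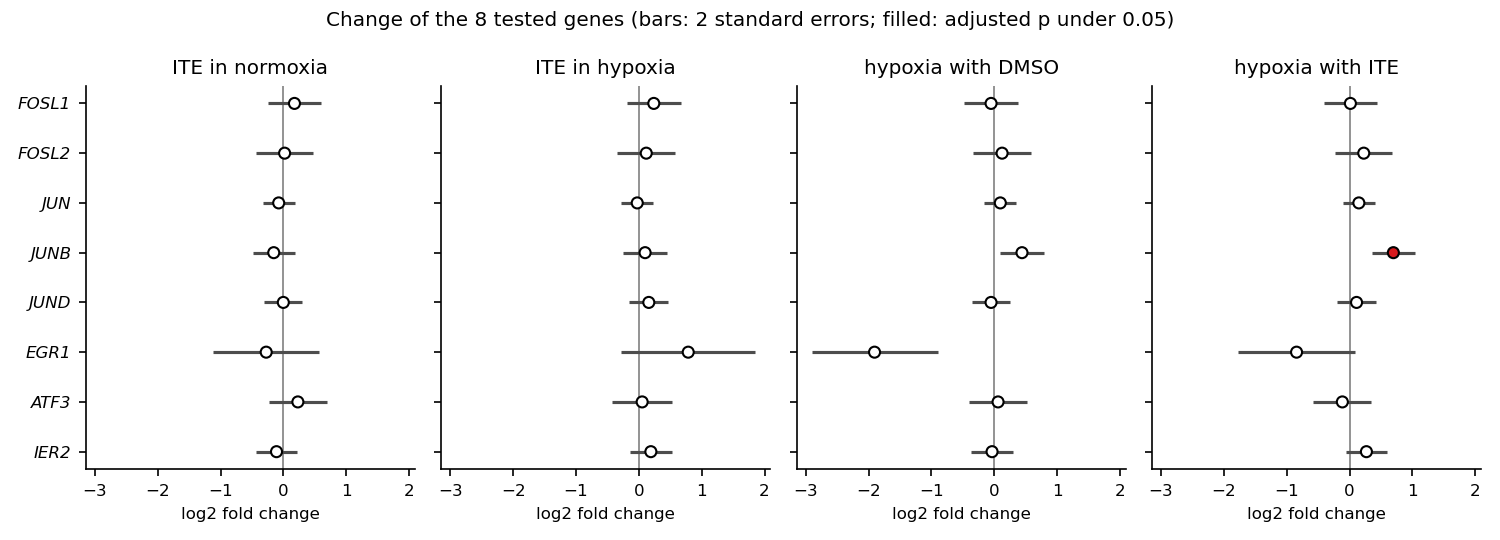
Log2 fold change of the 8 tested genes (horizontal axes) in 4 comparisons, as points with bars of 2 standard errors, filled where the adjusted p was under 0.05. The point of JUNB for hypoxia with ITE, at 0.70, is the only filled one of these 4 panels, and EGR1 for hypoxia with DMSO lies at -1.90 with an open point.

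The other 6 tested genes showed small differences with hypoxia. FOSL1 (chromosome 11, minus strand, 65659520 to 65668044) had log2 fold changes of -0.05 with DMSO and 0.01 with ITE, with 2 standard errors reaching from -0.48 to 0.37 and from -0.41 to 0.44. Its libraries ran from 65.5 to 138 CPM in hypoxia + DMSO and from 81.3 to 219 CPM in hypoxia + ITE. FOSL2 had 0.13 with DMSO and 0.23 with ITE, and its hypoxia libraries were far more scattered than its normoxia ones. FOSL2 stood at 28.2 CPM in hypoxia + DMSO replicate 1 and at 168 CPM in hypoxia + ITE replicate 6, both of low weight, while its 12 normoxia libraries lay between 74.1 and 98.4 CPM. Its mean over both hypoxia comparisons was 0.18 (adjusted p = 0.549), and 0.22 (adjusted p = 0.0368) without the 3 libraries of low weight, the only setting at which it passed.

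JUN (chromosome 1, minus strand, 59242517 to 59249720), the prototype partner of FOS, had log2 fold changes of 0.10 with DMSO and 0.15 with ITE, with intervals of -0.16 to 0.35 and -0.11 to 0.40. JUND had -0.05 and 0.11, and its highest libraries were hypoxia + DMSO replicate 1 at 132 CPM and hypoxia + ITE replicate 6 at 148 CPM, again 2 of low weight. ATF3 had 0.06 and -0.12, with intervals as wide as -0.58 to 0.35. IER2 had -0.03 and 0.27 (-0.06 to 0.60), and its highest library was hypoxia + ITE replicate 6 at 76.5 CPM. None of these 6 genes passed in any of the 5 comparisons.

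Other genes of the same early response and of the AP-1 pathway moved in part with hypoxia. Of 116 such genes tested, edgeR called 0 for ITE in normoxia, 0 for ITE in hypoxia and 0 for the interaction, with 6, 16 and 4 at an unadjusted p under 0.05, where 1.46%, 9.56% and 3.19% of all genes were. DESeq2 called 1 for ITE in normoxia, the leucine zipper factor CEBPB (log2 fold change -0.58, adjusted p = 0.0065), and 0 in the others. Of 14 other early transcription factors tested, 1 rose and 0 fell with DMSO, and 1 rose and 1 fell with ITE, beside 1.16% of all genes higher and 0.136% lower with DMSO, and 1.89% and 0.46% with ITE. The median log2 fold changes were 0.24 and 0.23, against -0.003 and 0.02 over all genes. BHLHE40, a circadian repressor and known hypoxia target, rose from 55.5 ± 6.97 to 159 ± 30.9 CPM with DMSO (log2 fold change 1.53, adjusted p = 1.27e-07). It rose by 1.29 with ITE (adjusted p = 3.57e-06). SRF, the factor that binds the CArG box, fell with hypoxia in the presence of ITE, from 79.0 ± 6.02 to 54.7 ± 7.93 CPM (log2 fold change -0.52, adjusted p = 0.0143, edgeR). With DMSO its log2 fold change for hypoxia was -0.46 (adjusted p = 0.0508), which did not pass. The mean of both hypoxia comparisons, the contrast added later, was -0.49 (adjusted p = 0.000309).

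Of 30 other early effectors and feedback genes tested, 4 rose and 0 fell with DMSO, and likewise 4 and 0 with ITE, with medians of -0.06 and -0.20. Over all genes, 1.16% were higher and 0.136% lower with DMSO, and 1.89% and 0.46% with ITE. DUSP1, a phosphatase that switches off MAP kinases, rose from a mean of 138 to 250 ± 25.7 CPM (SD, n = 6) with DMSO (log2 fold change 0.86, SE 0.15, adjusted p = 0.00045) and by 0.60 with ITE (adjusted p = 0.0216). BTG1, a growth-restraining cofactor, rose by 0.89 and 0.72, and GADD45B, a stress sensor, by 0.61 and 0.72. ZFP36L1, which binds AU-rich mRNAs, passed with DMSO at 0.39 and had 0.27 with ITE (adjusted p = 0.120, edgeR). IER5L passed with ITE at 1.18 and had 0.81 with DMSO (adjusted p = 0.0589).

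Among 23 other leucine zipper partners of AP-1, 1 rose and 0 fell in each hypoxia comparison, with medians of 0.11 and -0.04. For this and the next list, 1.16% of all genes were higher and 0.136% lower with DMSO, and 1.89% and 0.46% with ITE. NFIL3, a repressor, passed with DMSO (log2 fold change 0.79, adjusted p = 0.0239, edgeR) and had 0.22 with ITE (adjusted p = 0.519). JDP2, which can pair with JUN and repress AP-1 sites, passed with ITE (0.77, adjusted p = 0.0276) and had 0.38 with DMSO (adjusted p = 0.544). Of 28 upstream kinases and SRF cofactors, 1 rose and 0 fell with DMSO, and 1 rose and 1 fell with ITE, with medians of -0.07 and -0.06. MAP2K1, the kinase that activates ERK, rose by 0.67 with DMSO and 0.58 with ITE. MAP2K3, which activates p38, had a log2 fold change of -0.56 with ITE (adjusted p = 0.0297) and -0.49 with DMSO (adjusted p = 0.0997). In the mean of both hypoxia comparisons, the contrast added later, 18 of the 116 list genes passed, where 5.01% of all genes did. Some passed there but in neither single hypoxia comparison, and are named after their values were seen. NAB2, a corepressor of EGR1, had 0.50 (adjusted p = 0.0307, edgeR), ATF4 0.36 (0.00924) and ID1 0.74 (0.0152). ZFP36 had -0.61 (0.0446) and PLAU -0.53 (0.00286).

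Of 21 AP-1 target genes tested, 2 rose and 0 fell in each hypoxia comparison, with medians of 0.06 and 0.15. Beside them, 1.16% of all genes were higher and 0.136% lower with DMSO, and 1.89% and 0.46% with ITE. F3, tissue factor, rose from 26.7 ± 4.42 to 75.3 ± 21.9 CPM with DMSO (log2 fold change 1.49, adjusted p = 4.14e-07) and by 1.18 with ITE. VEGFA, the angiogenic growth factor and a textbook HIF target, rose by 0.87 (adjusted p = 3.43e-05) and 0.85 (adjusted p = 5.53e-05).

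Scatter between replicates differed widely among the 10 genes. The SD of log2 CPM within groups was 0.21 for JUN, 0.27 for JUND, 0.29 for IER2 and 0.30 for JUNB, against a median of 0.34 over all tested genes. It was 0.40 for FOSL1, 0.44 for ATF3 and 0.49 for FOSL2, and 1.08 for EGR1. The biological coefficient of variation fitted by edgeR was 45.9% for EGR1, where genes of its level had 34.8%, and 15.6% for JUN, where genes of its level had 19.5%. In normoxia + DMSO the highest ATF3 library was 2.72 times the lowest, while for FOSL2 this ratio was 1.21.

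Part of the scatter followed the replicate number, which runs from 1 to 6 in every group. In a model with group and number, number passed for 1 of the 8 tested genes (ATF3), where 1.76% of all genes passed. At an unadjusted p under 0.05 there were 5 of 8, and 38 of the 116 genes of the early response and AP-1 lists. The share of all genes at that level was not taken, so this number is not read further. The labels do not say what the numbers share, and the test compares numbers only. ATF3 (adjusted p = 0.00384, edgeR) was highest in replicate 5 in all 4 groups. Its replicate 5 values were 52.2 CPM in normoxia + DMSO, 54.1 CPM in normoxia + ITE, 45.2 CPM in hypoxia + DMSO and 46.2 CPM in hypoxia + ITE. The mean of these was 49.4 CPM (n = 4), and the means of the other numbers lay between 22.2 and 29.7 CPM. The highest ATF3 value outside replicate 5 was 36.4 CPM, in hypoxia + ITE replicate 1. JUN was also highest in replicate 5 in 4 of 4 groups, with a mean of 148 CPM against 109 to 123 CPM for the other numbers (adjusted p = 0.485), and FOSL1 and IER2 in 3 of 4 groups. EGR1 was lowest on average in replicate 5, at 0.916 CPM against 1.03 to 2.98 CPM (adjusted p = 0.409).

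**Figure D4:**
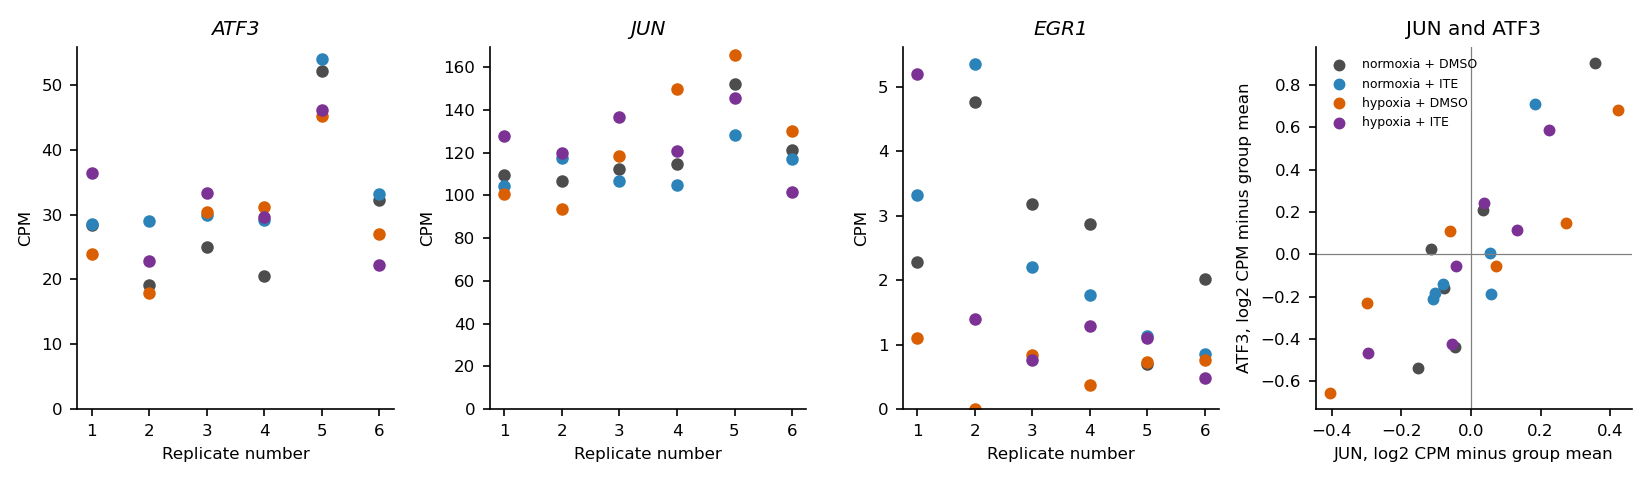
CPM of ATF3, JUN and EGR1 (vertical axes, from 0) against the replicate number, with colours for the 4 groups, and in the last panel the log2 CPM of ATF3 against that of JUN after each group mean was subtracted. All 4 ATF3 points of replicate 5 lie at 45.2 CPM or above, and the JUN and ATF3 deviations rise together with a Pearson r of 0.85.

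Of the 116 genes of the early response and AP-1 lists, 12 passed for replicate number, where 1.76% of all genes passed. The 12 differed in which number was highest. All 12 are named after their values were seen. IL8, a chemokine, was among those highest on average in replicate 5, with 195 CPM in replicate 5 against 99.1 to 133 CPM in the others (adjusted p = 0.00763). MAFF, a small leucine zipper factor, had 36.5 CPM in replicate 5 against 17.1 to 25.8 CPM (adjusted p = 0.00432). PPP1R15A, a stress-induced phosphatase subunit, had 129 CPM in replicate 5 against 81.2 to 117 CPM (adjusted p = 0.0318). RHOB, an early response GTPase, was highest in replicate 2 at 179 CPM and lowest in replicate 5 at 76.8 CPM (adjusted p = 0.000242). MMP1, a collagenase and textbook AP-1 target, had 28.2 CPM in replicate 1 against 2.90 to 11.3 CPM in the others (adjusted p = 4.94e-08). Of the other 7, IL11, EDN1, DUSP5 and HMOX1 were highest on average in replicate 5, ID1 in replicate 1, ID3 in replicate 2 and CCND1 in replicate 6.

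Among the 28 pairs of the 8 tested genes, 1 passed the test over all 24 libraries within groups. The share of passing pairs among all tested genes is not given here, so no pair is read as particular to these genes. JUN and ATF3 had a Pearson r of 0.85 over 24 libraries after the group means were subtracted (permutation p = 1e-05, the smallest that 100000 resamples within groups can give, adjusted p = 0.00028). Spearman's rho was 0.79 (permutation p = 1e-05, adjusted p = 0.00028). Without the 2 libraries farthest from the median of JUN, r was 0.76. With the means of each replicate number also removed, r was 0.78, and without the 3 libraries of low weight 0.86, and the pair passed in both. The relation of FOSL1 and FOSL2 rested on those 3 libraries, with an r of 0.57 over all 24 (permutation p = 0.0177, adjusted p = 0.248) and -0.29 without them. With the means of each replicate number removed, this pair passed, at an r of 0.85 (permutation test, adjusted p = 0.00014). FOSL1 and ATF3 had an r of 0.43 over all libraries (permutation p = 0.0421, adjusted p = 0.295) and passed without those 3, at an r of 0.78 (permutation test, adjusted p = 0.00084), but had -0.17 with the means of each replicate number removed.

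The genes most like each member over the 24 libraries, by Pearson r of log2 CPM, are given as a description, since all values share library and depth. For ATF3 they were IL8 (0.79), PPP1R15A (0.76) and GADD45A (0.75), and for JUN they were SPATA5L1 (0.75), ATF3 (0.75) and FAM219A (0.72). JUNB was most like VIM (0.78), CECR5 (0.76) and RIMKLA (0.75), and EGR1 most like LOC100506714 (0.88), IVD (0.86) and GCNT3 (0.84). FOSL1 was most like LAMB3 (0.89), PSMD2 (0.87) and STK10 (0.87). FOSL2 was most like MYO1E (0.93), ZNF496 (0.93) and TLN2 (0.92), which dropped to 0.69, 0.51 and 0.52 without the 3 libraries of low weight. JUND was most like FBXW9 (0.83), TMEM115 (0.83) and LTBR (0.81), and IER2 most like MVD (0.89), TELO2 (0.88) and FAM195A (0.87).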

How the data were processed

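RNA from RCC4+VHL cells was selected for poly(A), made into directional libraries and sequenced in pairs. According to the methods and the submitters' processing notes, the authors trimmed adaptors with Trim Galore 0.3.3, aligned reads to GRCh37 with HISAT2, used Picard 2.0.1 and counted reads per gene with HTSeq 0.5.4p3. The authors deposited raw counts per gene symbol and library, without normalisation. HTSeq was run in intersection-strict mode on UCSC-defined genes, and the strand setting is not given in the sources used here.

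From these counts, edgeR 4.0.16 (R 4.3.3) with filterByExpr (minimum count 10), TMM and a quasi-likelihood test, 1 mean per group over all 24 libraries, was used with Benjamini-Hochberg adjustment over 11735 genes at 0.05. Log2 CPM had a prior count of 2. The 6 replicates per group are independent according to the methods. Standard errors were derived from the F statistic. Quality weights came from limma 3.58.1. Scripts were tested on simulated data.

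The genes, lists and tests were chosen with earlier results of these data known. Named were all 10 genes, list genes past the threshold (at most 4 per direction and comparison), the 3 genes most like each member and 4 treatment checks. Gene models and lengths came from GENCODE 44 on GRCh37, and promoters from RefSeq, which had entries for 9 of the 10 genes. Alternatives were DESeq2 1.42.0, RLE, no filter, voom with quality weights, a replicate block, the compared groups alone and leaving out libraries. Leaving out 3 or 2 libraries and the mean hypoxia contrast were added after seeing the data. FOSB, FOSL2, JUNB and IER2 overlap annotated genes.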

Additional observations from a re-analysis of the deposited data

Results flagged for a closer look

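In 6 of the 40 combinations of gene and group, 1 library stood apart from the other 5 by Dixon's test on CPM, each on the high side. The test's rate of 1 in 20, about 2 of 40, assumes normally distributed values and independent combinations. CPM values need not be normal and the genes share libraries, so no excess over chance is read from this count. FOS was highest in normoxia + DMSO replicate 4 at 2.03 CPM, with 0.401 CPM in the next library. JUN was highest in normoxia + DMSO replicate 5 at 152 CPM, and JUNB in the same library at 34.5 CPM. ATF3 was highest in normoxia + ITE replicate 5 at 54.1 CPM. EGR1 was highest in hypoxia + ITE replicate 1 at 5.20 CPM, from 7 counts. IER2 was highest in hypoxia + ITE replicate 6 at 76.5 CPM, the library of lowest quality weight.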

How the results depend on the processing

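Hypoxia with DMSO called 0 of the 8 genes, and 1 (EGR1) under DESeq2, under voom with quality weights, without the 3 libraries of lowest weight and without the 2 shallowest. Leaving out 1 library gave 0 to 1. Hypoxia with ITE called 1 (JUNB), and 0 with only the compared groups, with or without the replicate block (log2 fold changes 0.68 and 0.70), and 0 to 1 with 1 library left out. Replicate number called 1 gene, 3 with DESeq2, 5 without the 3 libraries of low weight, and 1 to 2 with 1 library left out. The count over all genes also moved, as given below, so these numbers are not read as a trait of the 8 genes. Correlation called 1 pair of 28 (JUN and ATF3), 2 with the replicate block (also FOSL1 and FOSL2), 2 without those 3 libraries (also FOSL1 and ATF3), and 1 to 2 with 1 library left out. No share over pairs of all genes is given beside these. For ITE in hypoxia JUNB ran from -0.015 to 0.19 with 1 library left out, and turned sign only without hypoxia + ITE replicate 2. The causes were not tested. Counts of 0 for ITE at either oxygen level and for the interaction held under the alternatives run, as did 2 for mean hypoxia, except for 3 (with FOSL2) without the 3 libraries of low weight. EGR1 did not pass the filter with only the compared groups for hypoxia with DMSO or ITE in hypoxia, and gave no value there.

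Same-numbered libraries deviated together in part, but not throughout. Correlations of their deviations ran from -0.005 to 0.43 between the normoxia groups and from -0.18 to 0.21 between the hypoxia groups. Each library was also compared with all libraries of the other groups, which are numbered 1 to 6 in each. Of the 24 libraries, 14 were most like one of their own number, although only 1 of the 6 numbers in each other group is their own. The main test does not use the number. With the replicate number as a block over all libraries, JUNB had 0.69 for hypoxia with ITE (adjusted p = 0.00612) and EGR1 -1.57 for hypoxia with DMSO (adjusted p = 0.0706). That block gave 13 genes in all for ITE in normoxia against 6, and moved no other count of genes by over 1.5 times.

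Over the other 6 genes, 90 of 1164 estimates turned sign, between -0.24 and 0.12. The count of all genes called moved most for ITE in normoxia, from 6 to 255 (compared groups with the block), 112 (voom), 30 (compared groups), 28 (3 libraries left out) and 14 (DESeq2). Hypoxia with DMSO went from 152 to 840 (voom), 452, 258, 249 and 233, and hypoxia with ITE from 276 to 688 (DESeq2), 605 (voom), 475, 85 and 55. Mean hypoxia went from 588 to 1533 (voom), 1121 and 971, replicate number from 206 to 1230 and 617, and ITE in hypoxia from 7 to 4 and 1. With 1 library left out, counts of all genes ran from 112 to 303 for hypoxia with DMSO, highest without hypoxia + ITE replicate 6, and from 159 to 811 for hypoxia with ITE, lowest without normoxia + ITE replicate 4 and highest without hypoxia + ITE replicate 5. They ran from 4 to 13 for ITE in normoxia, from 412 to 1021 for mean hypoxia and from 119 to 481 for replicate number, each highest without hypoxia + ITE replicate 6, and from 4 to 8 for ITE in hypoxia. Replicate number was lowest without normoxia + ITE replicate 5. In the shallowest library, EGR1, FOS and FOSB at a few CPM or less lie at or below the 3.90 CPM that 3 counts stand for.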
